A study of Mus musculus with 24 samples.

Results

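The enzymes that write, copy and oxidise DNA methylation were followed in mouse embryonic stem cells with and without knockdown of the arginine methyltransferase gene Prmt1. They were the methyltransferase genes Dnmt1, Dnmt3a and Dnmt3b, the cofactor gene Dnmt3l, the dioxygenase genes Tet1, Tet2 and Tet3, and Uhrf1, which recruits DNMT1. These 8 genes were taken by name out of 19938 genes measured. All 8 were measured, by 11 probe sets, and each gene is represented by its probe set with the highest mean over all arrays.

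In mammals a methyl group is placed on cytosine mainly where a guanine follows (CpG). DNMT3A and DNMT3B methylate unmarked sites (de novo methylation), aided by the catalytically inactive DNMT3L, and DNMT1 copies the marks to the new strand after replication, at sites that UHRF1 recognises as hemimethylated. TET enzymes oxidise methylcytosine, which leads to its loss. Naive embryonic stem cells hold high levels of TET1 and TET2, while DNMT3A and DNMT3B are known to increase as the epiblast enters the primed state around implantation.

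D3, an established mouse embryonic stem cell line, was used throughout. The cells carried either the knockdown (siPRMT1) or a scrambled control sequence (siSCR), and both were hybridised to Affymetrix whole-transcript arrays in 4 states. The states were the undifferentiated culture, embryoid bodies at day 4 (floating cell clumps, grown without the cytokine LIF, in which differentiation begins), embryoid bodies given the vehicle DMSO for 12 h, and embryoid bodies given all-trans retinoic acid (ATRA, 5 micromol) for 12 h. The 8 groups were therefore siPRMT1 and siSCR in each state, with 3 arrays each that the labels call biological replicates, 24 arrays in all. Per the labels, feeder cells had been removed by at least 3 passages on gelatin. The sample names place the 12 h after day 4, whereas the protocol places it within the 4 days. Whether the knockdown was stable or transient, and whether each line was 1 clone, are points on which the labels are silent.

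Values are log2 expression values as deposited, which ran from 2.14 to 14.5 over all probe sets, with array medians of 7.47 to 7.67. Differences are log2 fold changes ± standard error, from a single limma fit to all 24 arrays. A gene was called where the p-value, adjusted by Benjamini and Hochberg over all 19938 genes, was under 0.05. Precision is limited by the 3 arrays of a group, and a typical gene had a standard error of 0.0932 (median). The pluripotency marker Pou5f1 averaged 13.29 in undifferentiated siPRMT1 cells and 13.12 in undifferentiated siSCR cells (log2, n = 3 each). Prmt1 itself stood at 38.6% of its siSCR level in undifferentiated siPRMT1 cells, 64.6% at day 4, 46.2% with DMSO and 36.7% with ATRA. The 6 siSCR arrays of DMSO and ATRA stood apart from the other 18 arrays: on the first principal component, with 52.2% of the variance, they scored 50.1 to 61.2 and the others -26.8 to -9.44. The spread of values over genes was also narrower on these 6 (SD 1.98 to 2.07) than on the other 18 arrays (SD 2.15 to 2.27). Every comparison of one of these groups with a group outside them crosses that border, and there border and condition cannot be told apart. In bulk RNA, fewer cells of a type and less RNA per cell cannot be told apart either.

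The 3 genes of de novo methylation were those higher in siPRMT1 at day 4, so the 250 bases before the annotated start sites of Dnmt3a, Dnmt3b and Dnmt3l are shown first (RefSeq, GRCm38.p6, all on the plus strand). Dnmt3a has 3 annotated starts in that table, numbered 1 to 3, of which starts 1 and 3 are given, and Dnmt3l has 3, of which start 1 is given. Capitals mark the letters of any motif that matched.
Dnmt3a, start 1, chr12:3806730-3806979: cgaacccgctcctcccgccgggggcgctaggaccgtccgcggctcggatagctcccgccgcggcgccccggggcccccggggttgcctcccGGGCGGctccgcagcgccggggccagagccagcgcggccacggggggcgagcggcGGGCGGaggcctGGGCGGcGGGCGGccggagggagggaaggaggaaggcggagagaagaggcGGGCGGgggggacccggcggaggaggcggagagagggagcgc
Dnmt3a, start 3, chr12:3891494-3891743: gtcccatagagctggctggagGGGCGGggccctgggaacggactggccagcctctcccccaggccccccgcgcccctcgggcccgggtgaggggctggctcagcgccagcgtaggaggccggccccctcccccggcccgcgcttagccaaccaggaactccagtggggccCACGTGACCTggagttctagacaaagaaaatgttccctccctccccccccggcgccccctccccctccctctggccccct
Dnmt3b, chr2:153649199-153649448: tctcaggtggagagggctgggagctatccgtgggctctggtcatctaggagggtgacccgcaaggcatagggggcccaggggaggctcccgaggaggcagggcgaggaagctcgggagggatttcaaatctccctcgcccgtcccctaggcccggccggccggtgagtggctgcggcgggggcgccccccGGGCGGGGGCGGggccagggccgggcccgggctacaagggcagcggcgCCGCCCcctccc
Dnmt3l, start 1, chr10:78042037-78042286: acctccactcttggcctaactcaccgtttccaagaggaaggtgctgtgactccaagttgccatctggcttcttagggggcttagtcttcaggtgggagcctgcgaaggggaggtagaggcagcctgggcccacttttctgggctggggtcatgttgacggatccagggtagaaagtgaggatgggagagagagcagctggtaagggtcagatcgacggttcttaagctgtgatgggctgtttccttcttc
The windows differed in CpG content. Dnmt3a held 38 CpG at start 1 and 15 at start 3, Dnmt3b held 21, and Dnmt3l held 5, where the median of 32851 windows of the same length was 6 with quartiles of 2 and 16. The letters searched, on both strands, were GGGCGG (the GC box of Sp and KLF factors), ATGCAAAT (POU octamer), CTTTGA (TCF/LEF), TTTCCCGC and TTTGGCGC (E2F), AGGTCA (the core of nuclear receptor elements) and CACGTG (E-box). GGGCGG occurred at 5 places before start 1 of Dnmt3a, at 1 before start 3 and at 3 before Dnmt3b, 1 of them on the minus strand, where 32.7% of all windows held it. CACGTG before start 3 of Dnmt3a overlapped AGGTCA on the other strand, where 6.02% and 14% of all windows held these letters. None of the letters occurred in the Dnmt3l window shown, and ATGCAAAT (1.6% of windows), CTTTGA (13.8%), TTTCCCGC (0.895%) and TTTGGCGC (0.417%) occurred in none of the 4. From which start the RNA came was not analysed here.

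At day 4, 3 of the 8 genes were higher and 1 was lower in siPRMT1 than in siSCR, where 18.4% of all genes were called (11.4% higher and 7.01% lower). The 3 were Dnmt3a, Dnmt3b and Dnmt3l, and the lower one was Tet1. In undifferentiated cells 1 was higher (Dnmt3l) and 2 were lower (Dnmt3b and Uhrf1), where 18.8% of all genes were called (7.63% higher and 11.2% lower). The median difference over the 8 genes was 0.08 at day 4 and -0.14 in undifferentiated cells, where the medians over all genes were -0.02 and 0.01. Embryoid body formation, day 4 against undifferentiated, raised 5 and lowered 1 of the 8 in siPRMT1 and raised 5 in siSCR with none called lower. Of all genes 41.4% were called in siPRMT1 (23% higher and 18.4% lower) and 28.2% in siSCR (14.5% higher and 13.7% lower). That response differed between the lines for 6 of the 8 genes, more positive in siPRMT1 for 5 and more negative for Tet1, where 23.8% of all genes were called (15% higher and 8.83% lower). These splits depend on the scaling: after median centring the share of called genes that were higher was 82.9% at day 4 (61.9% as deposited), 74.95% for embryoid body formation in siPRMT1 (55.5% as deposited) and 78.0% for the difference between lines (63.0% as deposited). With the 6 siSCR arrays left out of the fit the counts were the same, except that Tet1 (0.12) was also called in undifferentiated cells, which made 4.

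**Figure D1:**
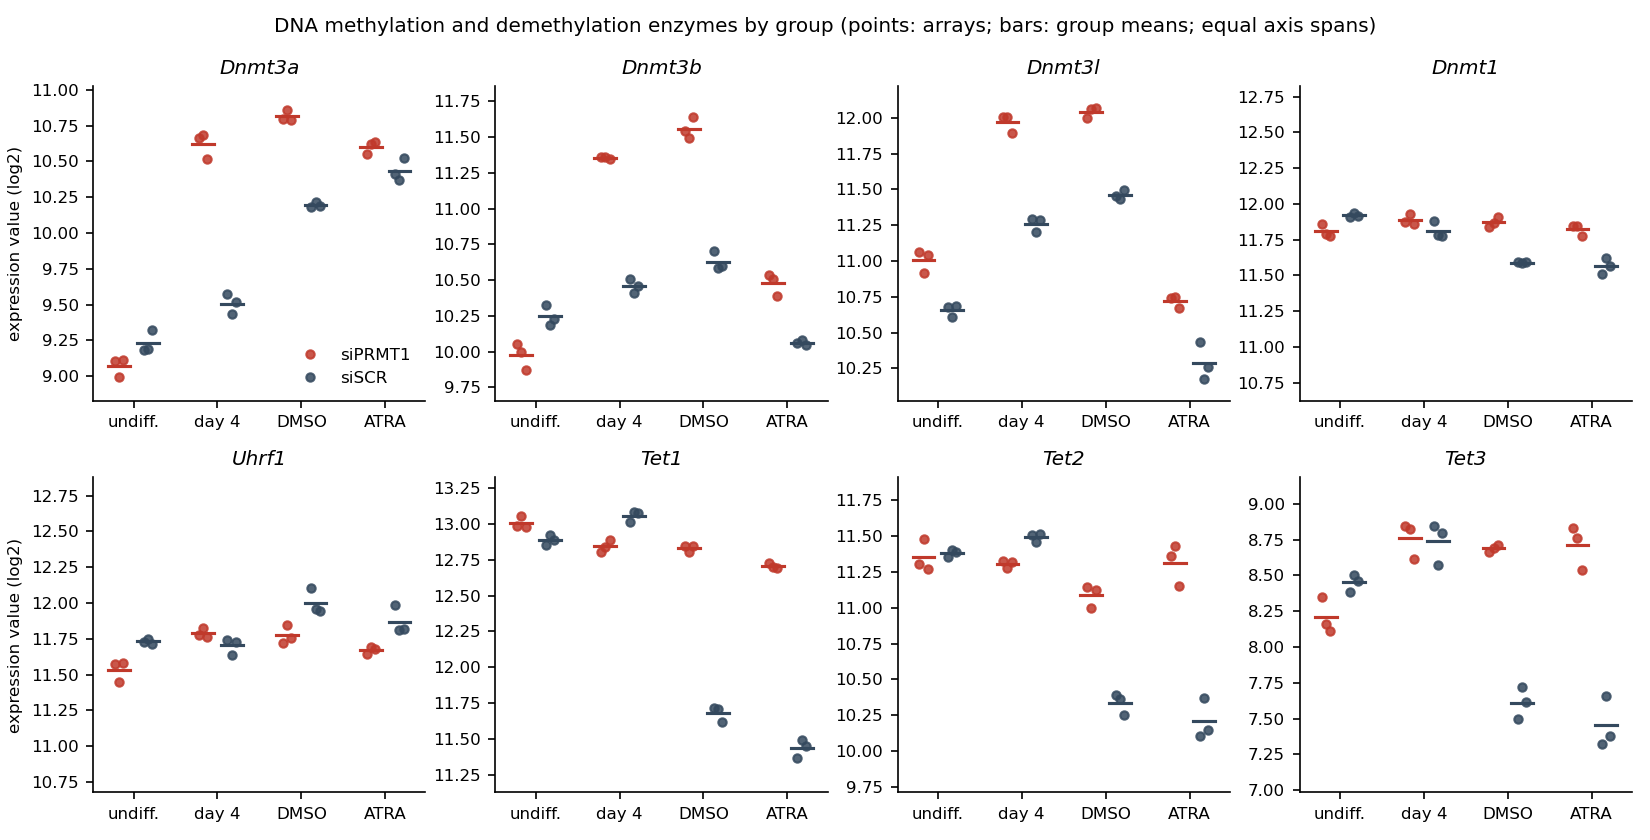
Log2 expression value (vertical axis, equal spans) of each gene on each of the 24 arrays, by state, with siPRMT1 left of siSCR and bars at the group means of 3 arrays. Dnmt3a, Dnmt3b and Dnmt3l are higher in siPRMT1 from day 4 on (Dnmt3a with ATRA not so after quantile normalization or scaling to the same SD), whereas Tet1, Tet2 and Tet3 are low in siSCR with DMSO and ATRA, the 6 arrays that stood apart.

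Dnmt3a, a de novo methyltransferase, started low in both lines. In undifferentiated cells it measured 9.11, 8.99 and 9.11 in siPRMT1, against 9.18, 9.19 and 9.32 in siSCR. Day 4 bodies gave 10.66, 10.68 and 10.52 in siPRMT1, against 9.57, 9.43 and 9.52 in siSCR. The day 4 arrays of the 2 lines did not overlap, and every day 4 siPRMT1 array lay above every siSCR array of both states. Dnmt3a rose by 1.55 ± 0.0602 during embryoid body formation in siPRMT1, a 2.93-fold change (limma adjusted p = 3.54e-14), and by 0.28 ± 0.0602 in siSCR (adjusted p = 0.00126). The difference between these responses was 1.28 ± 0.0851 (adjusted p = 2.28e-09). At day 4 Dnmt3a was thus 2.16-fold higher in siPRMT1, a log2 difference of 1.11 ± 0.0602 (adjusted p = 1.28e-10). In undifferentiated cells the difference of -0.16 ± 0.0602 missed the threshold (adjusted p = 0.0688), although all 3 siPRMT1 arrays lay below all 3 siSCR arrays.

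Dnmt3b, the other de novo methyltransferase and a marker of the primed epiblast, measured 10.06, 10.00 and 9.88 in undifferentiated siPRMT1 cells, against 10.33, 10.19 and 10.23 in siSCR cells. At day 4 it measured 11.36, 11.36 and 11.35 in siPRMT1, against 10.51, 10.41 and 10.46 in siSCR. The lines changed places: siPRMT1 was the lower line in undifferentiated cells and the higher one at day 4, with no overlap of arrays in either state. The knockdown difference was -0.27 ± 0.0589 in undifferentiated cells (adjusted p = 0.00208) and 0.90 ± 0.0589 at day 4, or 1.86-fold (adjusted p = 1.8e-09). Embryoid body formation raised Dnmt3b by 1.38 ± 0.0589 in siPRMT1 (2.6-fold, adjusted p = 1.68e-13) and by 0.21 ± 0.0589 in siSCR (adjusted p = 0.00993). The responses differed by 1.17 ± 0.0833 (adjusted p = 4.74e-09). Without undifferentiated siSCR replicate 2 the rise in siSCR was 0.18 and no longer called (adjusted p = 0.057).

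Dnmt3l, whose protein stimulates DNMT3A and DNMT3B, was the only one of the 3 that was already higher in undifferentiated siPRMT1 cells. It measured 11.06, 10.92 and 11.04 in undifferentiated siPRMT1 cells, against 10.68, 10.61 and 10.69 in siSCR cells, a difference of 0.35 ± 0.0616 (adjusted p = 3.36e-04). At day 4 it measured 12.01, 12.01 and 11.89 in siPRMT1, against 11.29, 11.21 and 11.29 in siSCR, a difference of 0.71 ± 0.0616 or 1.63-fold (adjusted p = 6.95e-08). The lines did not overlap in either state. Dnmt3l rose in both lines on embryoid body formation, by 0.96 ± 0.0616 in siPRMT1 and 0.60 ± 0.0616 in siSCR (adjusted p = 8.54e-11 and 1.24e-07). The responses differed by 0.36 ± 0.0871 (adjusted p = 0.00427), a smaller estimate than the 1.28 of Dnmt3a and the 1.17 of Dnmt3b; these estimates were not tested against each other. All calls named for Dnmt3a and Dnmt3l at these stages, and the day 4 and siPRMT1 calls of Dnmt3b, were kept under each alternative setting run and without each array in turn.

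**Figure D2:**
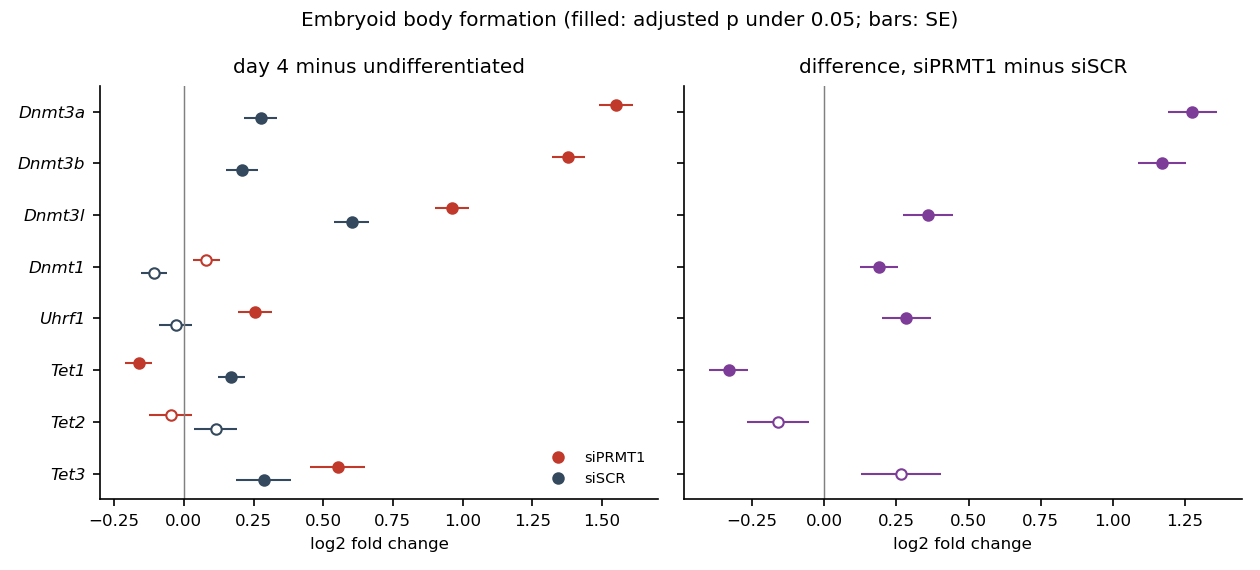
Log2 fold change of day 4 embryoid bodies against undifferentiated cells in siPRMT1 and siSCR (left) and the difference between these responses (right), with bars for the standard error and filled points where the limma adjusted p was under 0.05. Dnmt3a and Dnmt3b lie furthest to the right in siPRMT1, at 1.55 and 1.38, and near 0.28 and 0.21 in siSCR.

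Markers of other cell states moved together with these genes. The shares of all genes in siPRMT1 were 11.4% higher and 7.01% lower at day 4, and 7.63% higher and 11.2% lower in undifferentiated cells. For embryoid body formation they were 23% raised and 18.4% lowered in siPRMT1, and 14.5% raised and 13.7% lowered in siSCR. All 7 primed epiblast markers were higher in siPRMT1 at day 4 (median 0.87), led by Lef1 (1.71), Fgf5 (1.37) and Sall2 (1.13). Their mean log2 level per array was 9.90 to 10.00 in siPRMT1 and 9.04 to 9.13 in siSCR at day 4, while in undifferentiated cells it was 7.94 to 8.09 in siPRMT1 and 7.95 to 8.09 in siSCR. There 1 of the 7 was higher in siPRMT1 (Otx2) and 2 were lower (Zic2 and Sall2). Embryoid body formation raised all 7 in siPRMT1 (median 2.20) and 5 of 7 in siSCR (median 1.13). Of 11 endoderm markers 10 were higher in siPRMT1 at day 4, with mean levels of 10.33 to 10.45 in siPRMT1 and 9.47 to 9.67 in siSCR. Of 10 markers of naive and core pluripotency 0 were higher and 4 lower in siPRMT1 at day 4, among them Klf2 (-0.42) and Esrrb (-0.26), with mean levels of 11.94 to 11.96 in siPRMT1 and 12.11 to 12.17 in siSCR, and 8 were called with array weights and 7 with the trended robust variance. In undifferentiated cells 5 of these 10 were higher and 1 lower in siPRMT1 (mean levels 12.27 to 12.30 in siPRMT1 and 12.09 to 12.14 in siSCR), a count of 6 that was 3 in a fit of the compared groups alone, and 4 of the 11 endoderm markers were higher (mean levels 8.49 to 8.62 in siPRMT1 and 8.35 to 8.41 in siSCR). Of 15 markers of fibroblasts and feeder cells 7 were lower and 0 higher in siPRMT1 at day 4 (mean levels 7.80 to 7.83 in siPRMT1 and 8.00 to 8.16 in siSCR), and 4 were called without day 4 siPRMT1 replicate 1 or 3 or day 4 siSCR replicate 2, and likewise after quantile normalization or with arrays scaled to the same SD. In undifferentiated cells 11 of these 15 were lower in siPRMT1, with mean levels of 8.84 to 8.89 in siPRMT1 and 9.28 to 9.36 in siSCR. Embryoid body formation lowered 14 of the 15 in siPRMT1 and 13 in siSCR. The part of these markers in the differences of Dnmt3a, Dnmt3b and Dnmt3l was not tested.

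The genes of maintenance methylation changed less. Over the 8 group means Dnmt1 spanned 0.35 and Uhrf1 0.47 on the log2 scale, while Dnmt3a spanned 1.75, Dnmt3b 1.58 and Dnmt3l 1.75. The SD of the group means of Dnmt1 and Uhrf1 stood at percentiles 16.8 and 18.8 among all genes, and those of the 3 de novo genes at percentiles 93.5 to 96.5.

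Dnmt1, the methyltransferase that copies existing marks, measured 11.86, 11.79 and 11.77 in undifferentiated siPRMT1 cells, against 11.91, 11.93 and 11.92 in siSCR cells. In day 4 bodies it measured 11.88, 11.93 and 11.86 in siPRMT1, against 11.88, 11.79 and 11.77 in siSCR. The siPRMT1 arrays lay below those of siSCR in undifferentiated cells and overlapped them at day 4, and neither difference was called (-0.11 ± 0.0469, adjusted p = 0.115, and 0.08 ± 0.0469, adjusted p = 0.293). The undifferentiated difference was called with array weights (adjusted p = 0.0177) and with the trended robust variance (adjusted p = 0.0474). Embryoid body formation changed Dnmt1 by 0.08 ± 0.0469 in siPRMT1 and by -0.11 ± 0.0469 in siSCR, neither called (adjusted p = 0.179 and 0.101). After median centring the siPRMT1 change was called (0.20, adjusted p = 0.0141). Array weights (adjusted p = 0.0137) and the trended robust variance (adjusted p = 0.0413) called the siSCR change. The difference between these responses, 0.19 ± 0.0663, passed narrowly (adjusted p = 0.044). It was not called without any 1 of 9 of the 12 arrays it uses (adjusted p 0.0648 to 0.112), nor with arrays scaled to the same SD, after quantile normalization or in a fit of the compared groups alone (adjusted p = 0.1, 0.0644 and 0.0656); the arrays without which it was kept were replicate 1 of undifferentiated siPRMT1 cells, replicate 3 of day 4 siPRMT1 and replicate 1 of day 4 siSCR. Without the last of these, replicate 1 of day 4 siSCR, the change in siSCR was also called, at -0.14 (adjusted p = 0.0483).

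Uhrf1, whose protein binds hemimethylated CpG and brings DNMT1 to it, measured 11.57, 11.45 and 11.58 in undifferentiated siPRMT1 cells, against 11.73, 11.75 and 11.72 in siSCR cells. This was a difference of -0.20 ± 0.0595 without overlap of arrays (adjusted p = 0.0217). At day 4 the values were 11.77, 11.83 and 11.77 in siPRMT1, against 11.74, 11.64 and 11.73 in siSCR, and the difference of 0.09 ± 0.0595 was not called (adjusted p = 0.377). Uhrf1 thus differed between the lines before embryoid body formation and was not called after it. It rose by 0.26 ± 0.0595 during embryoid body formation in siPRMT1 (adjusted p = 0.00154), where siSCR gave -0.03 ± 0.0595 (adjusted p = 0.822), and the responses differed by 0.28 ± 0.0841 (adjusted p = 0.017). The undifferentiated call was lost without siPRMT1 replicate 2 (-0.16, adjusted p = 0.125), siSCR replicate 1 (-0.20, adjusted p = 0.0542) or siSCR replicate 2 (-0.19, adjusted p = 0.0685), with arrays scaled to the same SD (-0.17, adjusted p = 0.0951) and in a fit of the compared groups alone (adjusted p = 0.0611). The difference between responses was not called with arrays scaled to the same SD (0.26, adjusted p = 0.0586), nor without undifferentiated siPRMT1 replicate 2 (0.24, adjusted p = 0.0564) or day 4 siSCR replicate 2 (0.25, adjusted p = 0.0521). In undifferentiated cells 11 of the 15 fibroblast and feeder markers were lower in siPRMT1, as Uhrf1 was, where 11.2% of all genes were lower. During embryoid body formation in siPRMT1, however, 14 of the 15 fell (median -1.01) while Uhrf1 rose. The part of these markers in the Uhrf1 differences was not tested.

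Of 18 genes of S phase DNA replication, 6 were higher and 0 lower in siPRMT1 at day 4 (median 0.06), led by Rfc3 (0.23), Mcm5 (0.22) and Ccne1 (0.20), where 11.4% of all genes were higher and 7.01% lower. In undifferentiated cells 0 were higher and 2 lower (median -0.03), Ccne2 (-0.39) and Rfc3 (-0.25), a share near the 11.2% of all genes that were lower there. Embryoid body formation raised 3 and lowered 6 of the 18 in siPRMT1, and raised 1 and lowered 7 in siSCR. Of all genes it raised 23% and lowered 18.4% in siPRMT1, and raised 14.5% and lowered 13.7% in siSCR. The day 4 count was 3 without siPRMT1 replicate 1 or siSCR replicate 2 or in a fit of the compared groups alone, the undifferentiated count was 1 without siPRMT1 replicate 2 or 3 or siSCR replicate 1 or 3, and the 9 called in siPRMT1 were 5 without day 4 replicate 3.

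**Figure D3:**
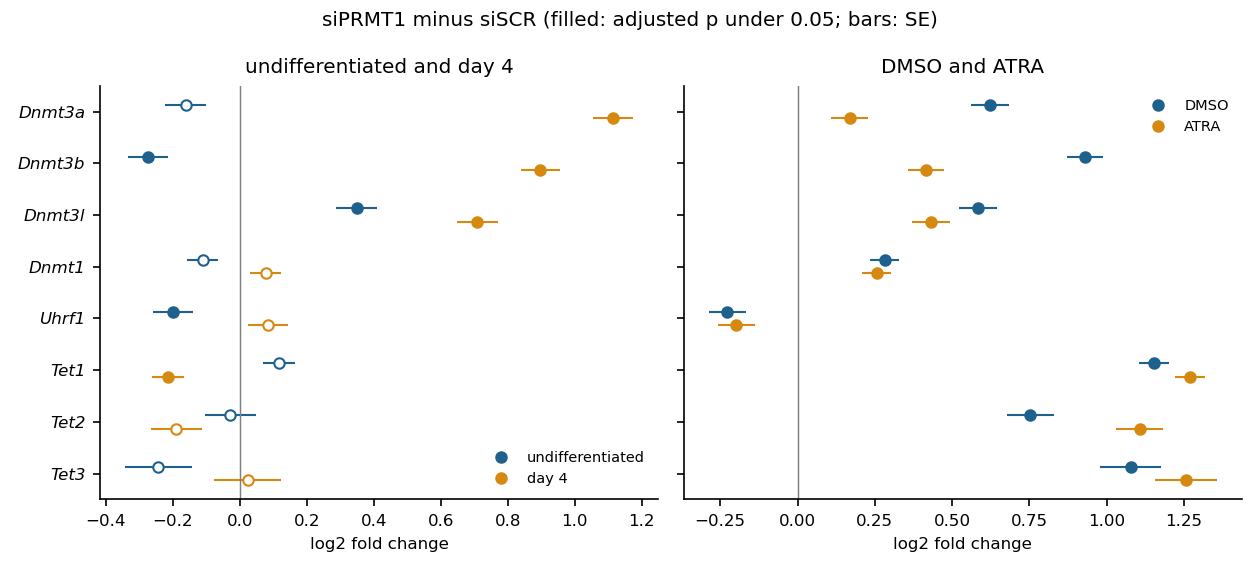
Log2 fold change of siPRMT1 against siSCR for each gene in undifferentiated cells and at day 4 (left) and with DMSO and ATRA (right), with bars for the standard error and filled points where the limma adjusted p was under 0.05. The left panel sets Dnmt3a, Dnmt3b and Dnmt3l at day 4 apart at 0.71 to 1.11, and the right panel, which crosses the border to the 6 siSCR arrays, has Tet1, Tet2 and Tet3 at 0.75 to 1.27.

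Tet1, the main TET gene of naive embryonic stem cells, measured 12.99, 13.06 and 12.98 in undifferentiated siPRMT1 cells, against 12.86, 12.93 and 12.89 in siSCR cells (0.12 ± 0.048, adjusted p = 0.0995). At day 4 it measured 12.81, 12.84 and 12.89 in siPRMT1, against 13.01, 13.09 and 13.08 in siSCR. Tet1 was therefore lower in siPRMT1 at day 4, by -0.21 ± 0.048 with no overlap of arrays (adjusted p = 0.00304), the opposite sign to the 3 de novo genes. It fell by 0.16 ± 0.048 during embryoid body formation in siPRMT1 (adjusted p = 0.00982) and rose by 0.17 ± 0.048 in siSCR (adjusted p = 0.0099). The responses differed by -0.33 ± 0.0678 (adjusted p = 0.00104). The rise in siSCR was not called with arrays scaled to the same SD (0.15, adjusted p = 0.076) or in a fit of the compared groups alone (adjusted p = 0.0627). The fall in siPRMT1 was not called without undifferentiated siPRMT1 replicate 2 (-0.14, adjusted p = 0.0529) or as the mean of the Tet1 probe sets (-0.10, adjusted p = 0.11). It was not called either with the arrays centred on their medians (-0.05, adjusted p = 0.571), a setting in which the day 4 difference was -0.13 and missed the threshold too (adjusted p = 0.101).

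Tet2, the second TET gene of naive cells, measured 11.31, 11.48 and 11.27 in undifferentiated siPRMT1 cells, against 11.35, 11.40 and 11.39 in siSCR cells. Day 4 bodies gave 11.32, 11.28 and 11.32 in siPRMT1, against 11.51, 11.46 and 11.52 in siSCR. The arrays overlapped in undifferentiated cells, and at day 4 all siPRMT1 arrays lay below all siSCR arrays. No change of Tet2 was called in these states as deposited: the day 4 difference was -0.19 ± 0.0765 (adjusted p = 0.0965), and embryoid body formation gave -0.05 ± 0.0765 in siPRMT1 and 0.11 ± 0.0765 in siSCR (adjusted p = 0.652 and 0.333). The 95% interval of the day 4 difference ran from -0.35 to -0.03, and it was called in a fit of the compared groups alone (adjusted p = 0.0378), after quantile normalization (-0.24, adjusted p = 0.0233), with array weights (-0.20, adjusted p = 0.0113) and with the trended robust variance (adjusted p = 0.0449).

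Tet3, known for oxidising the paternal genome of the zygote, measured 8.35, 8.16 and 8.11 in undifferentiated siPRMT1 cells, against 8.38, 8.50 and 8.46 in siSCR cells (-0.24 ± 0.099, adjusted p = 0.101). At day 4 it measured 8.84, 8.82 and 8.62 in siPRMT1, against 8.85, 8.57 and 8.79 in siSCR, which overlapped (0.02 ± 0.099, adjusted p = 0.908). Tet3 was the TET gene that rose during embryoid body formation in both lines, by 0.55 ± 0.099 in siPRMT1 (adjusted p = 1.21e-04) and by 0.29 ± 0.099 in siSCR (adjusted p = 0.0345). The difference of 0.27 ± 0.14 between these rises was not called (adjusted p = 0.192). The call in siSCR was lost without undifferentiated siSCR replicate 1 (0.25, adjusted p = 0.113) or replicate 3 (0.29, adjusted p = 0.0717), and without day 4 siSCR replicate 1 (0.23, adjusted p = 0.151) or replicate 3 (0.26, adjusted p = 0.116).

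Tet1 and Tet3 have further probe sets, which gave different sizes of change and in places a different sign. Tet1 has 3 (10369702, used above, 10369690 and 10369688). The day 4 knockdown difference was -0.21, -0.18 and -0.18 on the 3, close to each other, whereas with DMSO it was 1.15 on the first, 0.60 on the second and 0.46 on the third. In siPRMT1 the change on embryoid body formation was -0.16, -0.11 and -0.04. Tet3 has 2, whose means over the 24 arrays, 8.33 and 8.32, were almost equal, so that the choice of the brighter one (10545682) rests on a very small margin. On the other (10545692) embryoid body formation gave 0.23 in siPRMT1, against 0.55 on the brighter one, and 0.22 in siSCR, against 0.29. Its undifferentiated knockdown difference was 0.01, against -0.24 on the brighter one, and its ATRA change in siSCR was 0.09, against -0.16. With DMSO the knockdown difference was 1.08 on the brighter Tet3 set and 0.30 on the other. With ATRA it was 1.26 and 0.29 on these Tet3 sets, and 1.27, 0.75 and 0.32 on the Tet1 sets in the order above. Over the 24 arrays the unused sets correlated with the used ones at 0.980 and 0.906 for Tet1 and 0.825 for Tet3, which is a description, since all points share the arrays and their border. The other 6 genes had 1 probe set each.

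**Figure D4:**
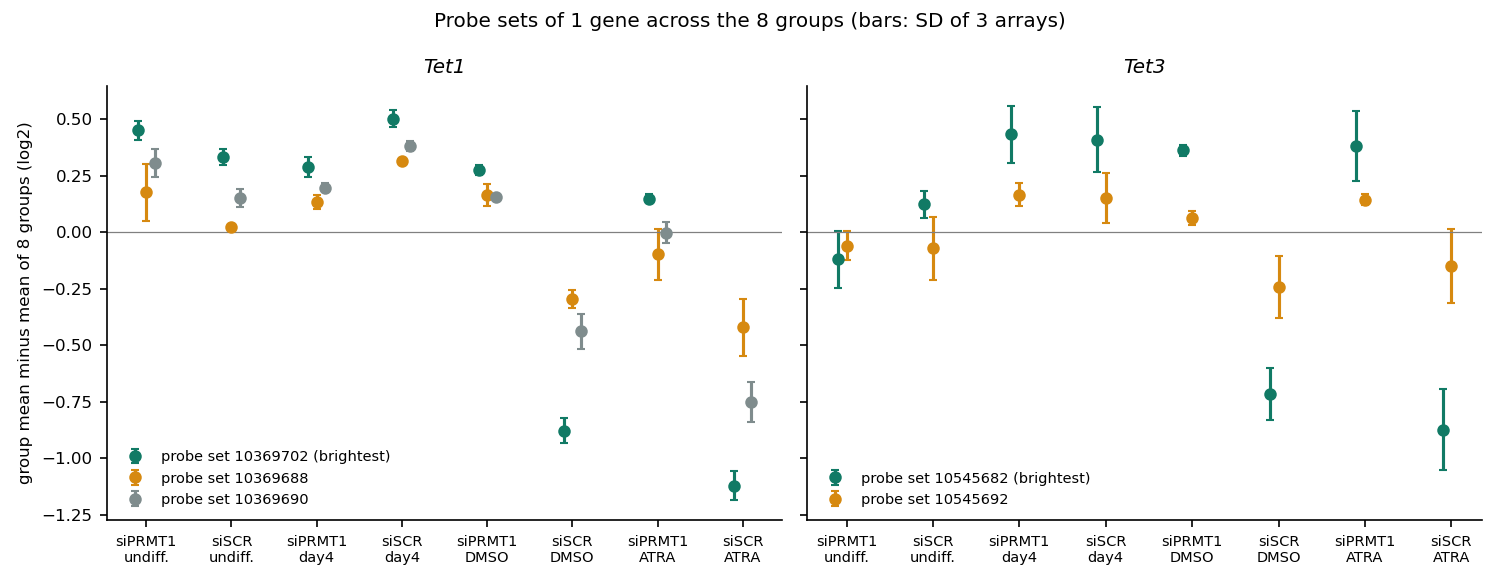
Group mean of each Tet1 and Tet3 probe set minus its mean over the 8 groups (log2, vertical axis) in the 8 groups, with bars for the SD of 3 arrays. The sets of a gene order the groups alike at most points, but the brightest set falls furthest in siSCR with DMSO and ATRA.

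ATRA lowered Dnmt3l and Dnmt3b in both lines. Against DMSO, 3 of the 8 genes were lower and 0 higher in siPRMT1, where 12% of all genes were called (6.05% higher and 5.94% lower), and 3 were lower and 1 higher in siSCR, where 23.4% were called (11.2% higher and 12.2% lower). The response differed between the lines for 2, Dnmt3b and Dnmt3a, both more negative in siPRMT1, where 3.24% of all genes were called (1.92% higher and 1.32% lower). After median centring 32.8% of the called genes in siSCR were higher, against 47.8% as deposited. Each ATRA group was compared with the DMSO group of its own line, so these comparisons do not cross the border. The median change of the 8 genes was -0.12 in siPRMT1 and -0.15 in siSCR, where the median over all genes was 0.03 in both. With the 6 siSCR arrays left out of the fit, 5 of the 8 were called in siPRMT1, Tet1 (-0.13) and Tet2 (0.23) being added.

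Dnmt3l measured 10.74, 10.75 and 10.67 with ATRA in siPRMT1, against 12.00, 12.06 and 12.07 with DMSO. In siSCR it measured 10.44, 10.17 and 10.26 with ATRA, against 11.45, 11.43 and 11.49 with DMSO. Dnmt3l fell by 1.32 ± 0.0616 in siPRMT1 (2.5-fold lower, adjusted p = 2.44e-12) and fell by 1.17 ± 0.0616 in siSCR (2.25-fold lower, adjusted p = 4.05e-11). Its ATRA mean lay below its undifferentiated mean in both lines (10.72 against 11.01 in siPRMT1 and 10.29 against 10.66 in siSCR). This was not tested, and in siSCR it crosses the border. The difference between the responses was -0.15 ± 0.0871 and not called (adjusted p = 0.399, 95% interval -0.33 to 0.03).

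Dnmt3b measured 10.53, 10.51 and 10.39 with ATRA in siPRMT1, against 11.54, 11.49 and 11.64 with DMSO. In siSCR it measured 10.06, 10.08 and 10.05 with ATRA, against 10.70, 10.58 and 10.60 with DMSO. It fell by 1.08 ± 0.0589 in siPRMT1 (2.11-fold lower, adjusted p = 3.08e-11) and fell by 0.56 ± 0.0589 in siSCR (1.48-fold lower, adjusted p = 7.47e-07). The responses differed by -0.52 ± 0.0833 (adjusted p = 0.0013), with the larger fall in siPRMT1, where the DMSO level was also higher. Arrays of ATRA and DMSO did not overlap in either line.

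Dnmt3a went opposite ways. It measured 10.55, 10.63 and 10.63 with ATRA in siPRMT1, against 10.80, 10.86 and 10.79 with DMSO, and fell by 0.21 ± 0.0602 (adjusted p = 0.0209). In siSCR it measured 10.41, 10.37 and 10.53 with ATRA, against 10.18, 10.21 and 10.19 with DMSO, and rose by 0.24 ± 0.0602 (adjusted p = 0.00703). The responses differed by -0.45 ± 0.0851 (adjusted p = 0.0046). The fall in siPRMT1 was not called without ATRA replicate 1 (-0.19, adjusted p = 0.102), DMSO replicate 1 (-0.22, adjusted p = 0.0512) or DMSO replicate 2 (-0.19, adjusted p = 0.0945), nor with arrays scaled to the same SD (-0.20, adjusted p = 0.0503) or after quantile normalization (-0.19, adjusted p = 0.0529). The rise in siSCR was not called in a fit of the compared groups alone (adjusted p = 0.167) or with array weights (0.24, adjusted p = 0.123), nor after median centring (0.18, adjusted p = 0.0628).

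Tet1 was lower with ATRA in siSCR, where it measured 11.36, 11.49 and 11.45 with ATRA, against 11.71, 11.71 and 11.62 with DMSO (-0.24 ± 0.048, adjusted p = 0.00108), and this was not called in a fit of the compared groups alone (adjusted p = 0.162). In siPRMT1 Tet1 changed by -0.13 ± 0.048 (adjusted p = 0.099). That change was called as the mean of the Tet1 probe sets (-0.18, adjusted p = 0.021) and with array weights (-0.12, adjusted p = 5.3e-04). The trended robust variance (adjusted p = 0.0188) and leaving out the 6 siSCR arrays (adjusted p = 0.0424) called it too. The unused Tet1 sets 10369690 and 10369688 gave -0.16 and -0.26 in siPRMT1, and -0.31 and -0.13 in siSCR. Tet2 measured 11.36, 11.43 and 11.15 with ATRA in siPRMT1, against 11.15, 10.99 and 11.13 with DMSO (0.23 ± 0.0765, adjusted p = 0.0618). Without ATRA replicate 3, the lowest of these, the Tet2 change in siPRMT1 was 0.31 and called (adjusted p = 0.013). It was also called after quantile normalization (0.25, adjusted p = 0.0241), with arrays scaled to the same SD (0.23, adjusted p = 0.0344) and without the dimmest 25% of genes (adjusted p = 0.0406). The Tet2 responses differed by 0.35 ± 0.108 (adjusted p = 0.0794), and this was called without siPRMT1 ATRA replicate 3 (0.43, adjusted p = 0.0223) or siSCR ATRA replicate 2 (0.44, adjusted p = 0.0214). Dnmt1 and Tet3 were not called in either line (the change furthest from 0 was -0.16, for Tet3 in siSCR). Uhrf1 changed by -0.10 ± 0.0595 in siPRMT1 and -0.13 ± 0.0595 in siSCR (adjusted p = 0.33 and 0.111), and the siSCR change was called without siSCR ATRA replicate 1 (-0.19, adjusted p = 0.0288).

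**Figure D5:**
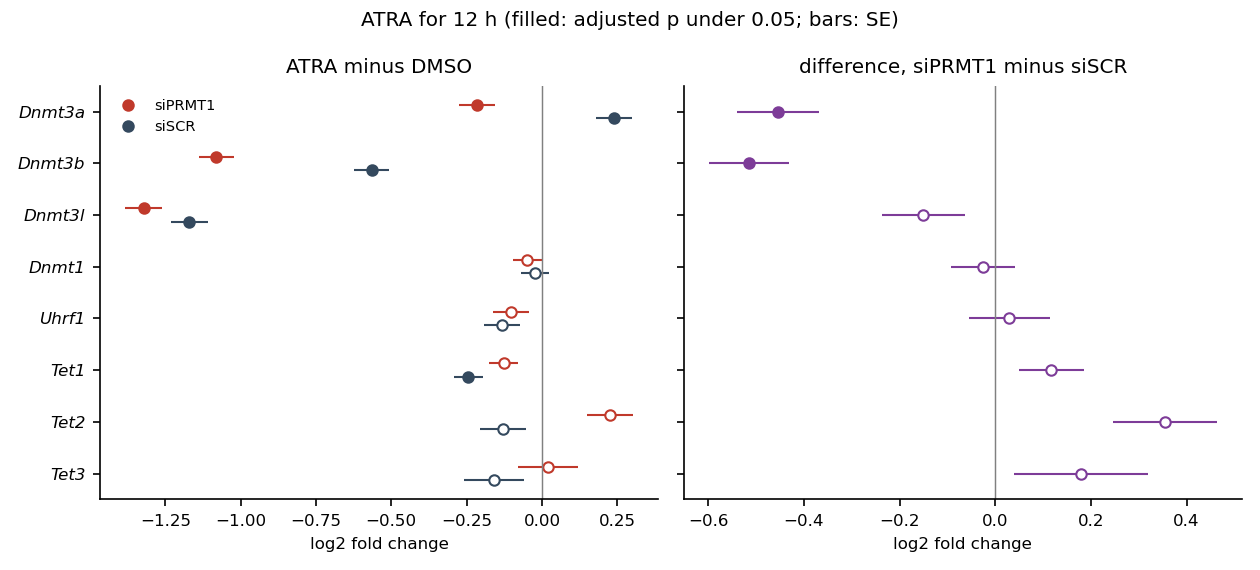
Log2 fold change of ATRA against DMSO in siPRMT1 and siSCR (left) and the difference between these responses (right), with bars for the standard error and filled points where the limma adjusted p was under 0.05. Dnmt3l lies lowest in both lines, at -1.32 and -1.17, and Dnmt3a and Dnmt3b are the filled points on the right.

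Against DMSO, ATRA lowered 5.94% and raised 6.05% of all genes in siPRMT1, and lowered 12.2% and raised 11.2% in siSCR. The primed epiblast markers moved with Dnmt3b and Dnmt3l here as well. ATRA lowered 7 of 7 in siPRMT1 (median -1.60) and 3 of 7 in siSCR (median -0.28), led in both lines by Otx2 (-2.69 in siPRMT1 and -2.20 in siSCR) and Lef1 (-2.60 in siPRMT1 and -0.51 in siSCR). Their mean level per array with ATRA was 8.74 to 8.75 in siPRMT1 and 7.95 to 8.07 in siSCR, and with DMSO 10.17 to 10.24 in siPRMT1 and 8.48 to 8.57 in siSCR. The siSCR count of 3 was 5 after quantile normalization or with arrays scaled to the same SD. Of the 10 pluripotency markers 4 were lower and 1 higher with ATRA in each line, Zfp42 (-0.58 in siPRMT1 and -0.52 in siSCR), Sox2 (-0.42 and -0.32) and Nr0b1 (-0.39 and -0.41) being among the lower ones. Their siSCR count of 5 was 2 in a fit of the compared groups alone. Of the 11 endoderm markers 3 were lower and 1 higher in siPRMT1, and 4 lower and 2 higher in siSCR, a count of 6 that was 1 in a fit of the compared groups alone, 1 without siSCR ATRA replicate 3, 2 without siSCR DMSO replicate 1 and 3 without replicate 2 of either. The part of these markers in the changes of Dnmt3b and Dnmt3l was not tested.

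DMSO bodies were compared with untreated day 4 bodies to look at the vehicle. If the 12 h came after day 4, as in the sample names, vehicle and age cannot be told apart here. The 3 TET genes were lower with DMSO in siSCR, by sizes that depended on the probe set for Tet1 and Tet3. No gene of the 8 was called in siPRMT1. In siPRMT1, 0 of the 8 genes were called by limma, where 0.461% of all genes were. At an unadjusted p under 0.05 there were 3, Dnmt3a (0.20 ± 0.0602), Dnmt3b (0.20 ± 0.0589) and Tet2 (-0.22 ± 0.0765). The share of all genes at this looser threshold is not given here, so the count of 3 has no background to compare with. The same 3 were called with array weights, a setting that called 2536 of all genes, against 92 without the weights. In siSCR, where the comparison crosses the border, 4 were higher and 4 lower, and 61.1% of all genes were called (30.8% higher and 30.3% lower). The log2 fold change was -1.38 ± 0.048 for Tet1, -1.16 ± 0.0765 for Tet2, -1.13 ± 0.099 for Tet3 and -0.22 ± 0.0469 for Dnmt1, which was 0.072 when each array was scaled to the same SD. The unused probe sets gave -0.82 and -0.61 for Tet1 and -0.40 for Tet3. Dnmt3a was higher by 0.69 ± 0.0602, Uhrf1 by 0.30 ± 0.0595, Dnmt3l by 0.20 ± 0.0616 and Dnmt3b by 0.17 ± 0.0589. The Dnmt3b call was lost without day 4 siSCR replicate 2 (0.14, adjusted p = 0.0672) or siSCR DMSO replicate 1 (0.13, adjusted p = 0.0835) and in a fit of the compared groups alone (adjusted p = 0.075). After median centring neither Dnmt3b (0.14, adjusted p = 0.121) nor Dnmt3l (0.17, adjusted p = 0.0623) was called. The lines differed in this response for 6 of the 8 (44.6% of all genes called, 25.1% higher and 19.5% lower), with Tet1 at 1.37, Tet3 at 1.05, Tet2 at 0.94, Dnmt1 at 0.20, Uhrf1 at -0.31 and Dnmt3a at -0.49. The Dnmt1 value fell to 0.17 and was not called without day 4 siSCR replicate 1 (adjusted p = 0.0516), and it was -0.070 with arrays scaled to the same SD. With the same SD the Uhrf1 difference was -0.61, and Dnmt3l, at -0.13 and not called as deposited, was -0.38 and called (adjusted p = 0.00255), as it was after quantile normalization (-0.26, adjusted p = 0.00848).

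The knockdown comparisons with DMSO and with ATRA cross the same border. With DMSO 7 of the 8 genes were higher and 1 lower in siPRMT1, where 65.9% of all genes were called (31.3% higher and 34.6% lower). With ATRA the counts were the same, where 70.1% were called (32.2% higher and 38% lower), but Dnmt1 and Dnmt3a turned sign with arrays scaled to the same SD and Dnmt3a also after quantile normalization. After median centring the share of called genes that were higher was 59.7% with DMSO (47.5% as deposited) and 59.8% with ATRA (45.9% as deposited). Centring each array on its median shifts the median of all genes by 0.11 with DMSO, by 0.13 with ATRA and, for embryoid body formation in siPRMT1, by 0.12. The median difference of the 8 was 0.69 with DMSO and 0.42 with ATRA, against -0.09 and -0.11 over all genes, and the highest adjusted p among the 8 was 0.00238 with DMSO and 0.0179 with ATRA. Tet1 measured 12.85, 12.81 and 12.85 with DMSO in siPRMT1, against 11.71, 11.71 and 11.62 in siSCR (1.15 ± 0.048), and with ATRA 12.73, 12.70 and 12.69 in siPRMT1, against 11.36, 11.49 and 11.45 in siSCR (1.27 ± 0.048). On this brightest Tet1 set the siPRMT1 values lay near those of day 4, and the siSCR values over 1 log2 unit below them.

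Tet2 and Tet3 had the same shape. Tet2 measured 11.15, 10.99 and 11.13 with DMSO in siPRMT1, against 10.39, 10.36 and 10.25 in siSCR (0.75 ± 0.0765), and with ATRA 11.36, 11.43 and 11.15 in siPRMT1, against 10.10, 10.37 and 10.15 in siSCR (1.11 ± 0.0765). Tet3 measured 8.67, 8.69 and 8.72 with DMSO in siPRMT1, against 7.49, 7.72 and 7.62 in siSCR (1.08 ± 0.099), and with ATRA 8.83, 8.76 and 8.54 in siPRMT1, against 7.32, 7.66 and 7.38 in siSCR (1.26 ± 0.099). Dnmt3b remained higher in siPRMT1 with DMSO (0.93 ± 0.0589) and with ATRA (0.42 ± 0.0589), and Dnmt3l likewise (0.58 ± 0.0616 and 0.43 ± 0.0616). These sizes depend on the scaling: quantile normalization gave 0.16 for Dnmt3b and 0.18 for Dnmt3l with ATRA, and scaling to the same SD gave 0.26 and 0.25 with ATRA and 0.31 for Dnmt3l with DMSO, all still called. Dnmt3a was higher by 0.62 ± 0.0602 with DMSO and by 0.17 ± 0.0602 with ATRA (adjusted p = 1.47e-08 and 0.0179). The ATRA value of Dnmt3a was -0.026 with arrays scaled to the same SD and -0.074 after quantile normalization. It was not called either with array weights (adjusted p = 0.101), in a fit of the compared groups alone (adjusted p = 0.0956), or without siPRMT1 ATRA replicate 2 (0.16, adjusted p = 0.0555) or replicate 3 (0.15, adjusted p = 0.0522), or siSCR ATRA replicate 2 (0.13, adjusted p = 0.0779).

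Dnmt1 measured 11.84, 11.87 and 11.91 with DMSO in siPRMT1, against 11.59 on each siSCR array (0.28 ± 0.0469). With ATRA it measured 11.84, 11.85 and 11.78 in siPRMT1, against 11.51, 11.62 and 11.57 in siSCR (0.26 ± 0.0469); with arrays scaled to the same SD these differences were 0.0097 and -0.071. Uhrf1 was the exception in sign, at 11.72, 11.85 and 11.76 with DMSO in siPRMT1, against 12.11, 11.96 and 11.94 in siSCR (-0.23 ± 0.0595). With ATRA Uhrf1 measured 11.65, 11.69 and 11.68 in siPRMT1, against 11.98, 11.81 and 11.82 in siSCR (-0.20 ± 0.0595). The scalings moved these Uhrf1 differences both ways. After median centring they were -0.12 with DMSO and -0.07 with ATRA, neither called (adjusted p = 0.15 and 0.429), after quantile normalization -0.36 and -0.38, and with arrays scaled to the same SD -0.52 and -0.55 (adjusted p = 1.4e-06 and 5.99e-07). With ATRA the difference was also not called in a fit of the compared groups alone (adjusted p = 0.0624).

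Ranked over the 8 groups, siPRMT1 with DMSO gave the highest mean of Dnmt3a (10.82 ± 0.04, SD, n = 3), Dnmt3b (11.56 ± 0.07) and Dnmt3l (12.04 ± 0.04), followed in each by siPRMT1 at day 4. For Dnmt3l these top 2 groups overlapped. Further down, Dnmt3a did not differ between siPRMT1 at day 4 and with ATRA, nor Dnmt3b between siPRMT1 with ATRA and siSCR at day 4, beyond the larger SD of the pair. The lowest means were those of undifferentiated siPRMT1 cells for Dnmt3a (9.07 ± 0.07) and Dnmt3b (9.98 ± 0.09), and of siSCR with ATRA for Dnmt3l (10.29 ± 0.13). For Dnmt3b undifferentiated siPRMT1 cells and siSCR with ATRA lay within 1 SD of each other. For Tet1 (13.06 ± 0.04) and Tet2 (11.50 ± 0.03) siSCR at day 4 was highest. In Tet1 the next group, undifferentiated siPRMT1, overlapped it. For Tet2 the 4 groups after the highest were within 1 SD of their neighbours, and so were the top 4 for Tet3, led by siPRMT1 at day 4 (8.76 ± 0.13). All 3 TET genes were lowest in siSCR with ATRA on the sets used, next to siSCR with DMSO, and in Tet2 and Tet3 these last 2 did not differ beyond the SD. The other Tet3 set was lowest in siSCR with DMSO (8.08, against 8.17 with ATRA). Dnmt1 was highest in undifferentiated siSCR cells (11.92 ± 0.01) and lowest in siSCR with ATRA (11.57 ± 0.06), and between these only 1 step, down to the 2 siSCR groups of DMSO and ATRA, left the arrays without overlap. Uhrf1 was highest in siSCR with DMSO (12.00 ± 0.09) and lowest in undifferentiated siPRMT1 cells (11.53 ± 0.08), and its order held only 1 such step, the last.

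Across the 8 group means Dnmt3b correlated with Dnmt3l at r = 0.886 and with Dnmt3a at 0.674, and Tet1 with Tet2 at 0.981. Over the 6 groups without siSCR DMSO and ATRA these were 0.895, 0.846 and 0.568, and Tet1 with Dnmt3a was -0.749. These values describe 8 or 6 points that share their arrays between genes, and the Tet1 and Tet2 value rests largely on the 2 groups left out.

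The genes most like each member were taken as the 3 highest correlations over the group means, among 5572 or 5573 genes whose group means had an SD of at least 0.3. Over 8 groups they were Apom, Gas8 and Ctsz for Dnmt3a (0.979 to 0.986), Grhl2, Eml1 and Lef1 for Dnmt3b (0.967 to 0.979), and Ext1, Tgm3 and Exoc3l for Dnmt3l (0.934 to 0.959). For Dnmt1 they were Wnk3, Ncs1 and Gemin5 (0.994 to 0.996) and for Uhrf1 Utp15, Mettl18 and Brms1l (0.965 to 0.981). For Tet1 they were H2bc3, Ifitm2 and Rae1 (0.996 to 0.997), for Tet2 Tmem243, Manea and Ammecr1 (0.993 to 0.994), and for Tet3 Epc2, Gpaa1 and Tmem47 (0.996 to 0.997). Over the 6 groups without the arrays that stood apart, Dnmt3b again had Grhl2 first (0.989), with Ube2l3 and E2f4 after it, and Dnmt1 kept Ncs1 and Gemin5 behind Abitram (0.969 to 0.984). The lists of the other members shared no gene with those over 8 groups: Gpr137b, Eda and Maf for Dnmt3a, Lgr4, Kirrel2 and Ldb1 for Dnmt3l, and Prrg4, Lrch2 and Frk for Uhrf1. For the TET genes they were Ddah2, Cnpy1 and Tcl1 for Tet1, Tekt5, Olfr153 and Fignl1 for Tet2, and Ythdc2, Dusp11 and Abhd18 for Tet3.

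Other genes of the pathway were taken from lists chosen by function. Of 11 partners and regulators of the methyltransferases, 2 were higher and 1 lower in siPRMT1 at day 4 (median 0.10, against -0.02 over all genes). The higher ones were Hells (0.32), a chromatin remodeller needed for de novo methylation of repeats, and Ehmt1 (0.22), a histone H3 lysine 9 methyltransferase. The lower one was Prdm14 (-0.60), a naive pluripotency factor known to repress Dnmt3b in embryonic stem cells. During embryoid body formation Prdm14 changed by -0.38 in siPRMT1 and 0.24 in siSCR, both called, and the responses differed by -0.61. With ATRA Prdm14 changed by -0.61 in siPRMT1 and -0.24 in siSCR, both called. Its part in the changes of Dnmt3b was not tested. In undifferentiated cells 0 of the 11 were higher and 2 lower, Setdb1 (-0.25) and Trim28 (-0.18), which is close to the 18.8% of all genes called there. The count was 1 with arrays scaled to the same SD or in a fit of the compared groups alone, and the day 4 count of 3, also near its background of 18.4%, was 6 with array weights. Embryoid body formation raised 5 and lowered 2 of the 11 in siPRMT1, and raised 1 and lowered 0 in siSCR. The shares of all genes were 23% raised and 18.4% lowered in siPRMT1, and 14.5% raised and 13.7% lowered in siSCR. Without 1 array the called count was 1 at day 4 (siSCR replicate 2), 1 in undifferentiated cells (siPRMT1 replicate 3) and 0 for embryoid body formation in siSCR (day 4 replicate 1 or undifferentiated replicate 3).

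A further list held genes of methylated CpG readers and of related proteins, 8 of them measured. In siPRMT1 at day 4, 2 were higher (Zbtb33, 0.47, and Mbd3, 0.18) and 3 lower (Zbtb4, -0.38, Zbtb38, -0.22, and Mbd4, -0.18). Of all genes 11.4% were higher and 7.01% lower there. The count of 5 was 3 without siPRMT1 replicate 1 or 2 or siSCR replicate 2. It was 2 without siPRMT1 replicate 3 or siSCR replicate 3 or with arrays scaled to the same SD. Zbtb33, which encodes the repressor Kaiso, was lower by -0.38 in undifferentiated siPRMT1 cells, so that, like Dnmt3b, it was the lower gene before and the higher gene after embryoid body formation. Its rise during embryoid body formation was 0.78 in siPRMT1, against -0.07 in siSCR, a difference of 0.84. With Mbd1 (-0.34) and Mbd4 (-0.19) Zbtb33 made 3 of the 8 lower and 0 higher in undifferentiated cells. Of all genes 11.2% were lower and 7.63% higher in that comparison.

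Another list held genes of base deamination, base excision repair and linked factors, 11 of them measured. In siPRMT1 at day 4, 1 was higher (Gadd45a, 0.47) and 3 lower (Gadd45b, -0.93, Neil3, -0.42, and Neil1, -0.31). Of all genes 11.4% were higher and 7.01% lower there. Gadd45a and Gadd45b encode stress proteins tied to repair, and Neil1 and Neil3 encode DNA glycosylases. In undifferentiated cells 4 were higher, among them Gadd45b (0.58), Apobec1 (0.42) and Neil1 (0.35), and 1 lower, Apex1 (-0.25). Of all genes 7.63% were higher and 11.2% lower in these cells. Gadd45b, Neil1 and Apobec1 had more negative responses to embryoid body formation in siPRMT1 (differences of -1.51, -0.66 and -0.59). Over this list 2 rose and 6 fell in siPRMT1 during embryoid body formation, and 4 rose and 2 fell in siSCR. Of all genes 23% rose and 18.4% fell in siPRMT1, and 14.5% rose and 13.7% fell in siSCR. The day 4 count of 4 was 7 with the 6 siSCR arrays left out and 9 with array weights, and the 8 called in siPRMT1 were 5 after median centring. Of 3 measured genes of the methyl donor cycle, Mtr, the methionine synthase gene, was higher at day 4 (0.21) and lower in undifferentiated cells (-0.20) in siPRMT1. Gnmt was higher in undifferentiated siPRMT1 cells (0.27), and neither it nor Mat2b was called at day 4. The Mtr call at day 4 was lost without siPRMT1 replicate 1 or 2 or siSCR replicate 2 or 3, and the undifferentiated count of 2 was 0 or 1 without any of the 6 arrays.

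Promoter CpG methylation is known to silence a set of germline genes in somatic cells, and 14 of these were read out. DNA methylation itself was not measured. Embryoid body formation lowered 7 of 14 in siPRMT1 (median -0.46), led by Mov10l1 (-1.63), Mael (-1.37) and Dazl (-1.18), with 0 higher. Of all genes 18.4% were lower and 23% higher there. In siSCR embryoid body formation lowered 5 (median -0.25), led by Slc25a31 (-1.49), Mael (-1.33) and Dazl (-0.95), and raised Stag3 (0.23). Here 13.7% of all genes were lower and 14.5% higher. The responses differed for 2, both more negative in siPRMT1: Stag3 by -1.33 and Mov10l1 by -0.94. That count of 2 of 14 was 5 with array weights, and 23.8% of all genes were called for this difference. At day 4 siPRMT1 had 4 of the 14 higher, led by Sycp3 (0.82), Slc25a31 (0.67) and Ddx4 (0.45), and 1 lower, Stag3 (-0.49), a count of 5 that was 1 without siPRMT1 replicate 1 or siSCR replicate 2 and 3 without siPRMT1 replicate 2 or siSCR replicate 1, but 9 with the 6 siSCR arrays left out, in a fit of the compared groups alone or with array weights. Of all genes 11.4% were higher and 7.01% lower at day 4. In undifferentiated cells 5 of the 14 were higher, led by Mov10l1 (1.06), Sycp3 (0.90) and Stag3 (0.83), and 1 lower, Asz1 (-0.43). There 7.63% of all genes were higher and 11.2% lower. ATRA raised 6.05% of all genes in siPRMT1 and 11.2% in siSCR. Of the 14 it raised 4 in siPRMT1, among them Dazl (0.45), and Dazl alone in siSCR (0.50). These counts were 2 in siPRMT1 without ATRA replicate 2 or DMSO replicate 2 or 3 or under each of the 3 scalings, 12 in siPRMT1 with array weights, and in siSCR 5 without ATRA replicate 2 and 2 without ATRA replicate 1 or DMSO replicate 2. Their mean level per array at day 4 was 7.63 to 7.68 in siPRMT1 and 7.48 to 7.55 in siSCR.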

How the data were processed

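RNA of 24 samples had been hybridised to Affymetrix arrays from 300 ng of input, per the labels' protocols. The authors summarised each probe set of an array to 1 log2 value before they deposited it, per the deposited value table. Its range of 2.14 to 14.5 shows the log2 scale, and the methods of summarisation and normalization are not given in the sources used here. No detection calls were used, and 0 columns belonged to other samples.

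Of 35556 probe sets, 21789 were annotated to 1 gene symbol, 1621 to several and 12146 to none in the platform annotation. The brightest set of each symbol gave 19938 genes, of which 999 had more than 1 set. Group means of the 8 groups were fitted with limma 3.58.1 in R 4.3.3 (lmFit, eBayes), for 13 comparisons with Benjamini-Hochberg adjustment over all genes. The fit was tested on simulated data.

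The members and the gene lists were chosen with earlier results of these data known. Named were all 8 members, up to 3 called genes per direction of each list, and the 3 genes most correlated with each member. The comparison of the vehicle response between lines and the list counts under the alternatives were added after the data were seen. Alternatives were the replicate block, only the groups compared, median centring, scaling to equal SD, quantile normalization, a filter on the dimmest 25% of genes, the mean of probe sets, array weights, a trended robust variance, leaving out the 6 siSCR arrays, and leaving out each array. Replicates are biological per the labels, without a statement that they came from separate cultures, so p-values measure the spread between these samples. Promoter windows are those of RefSeq for GRCm38.p6.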

Additional observations from a re-analysis of the deposited data

Results flagged for a closer look

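The 14 results in which the lines responded differently are those whose difference between responses (siPRMT1 minus siSCR, log2) passed limma's adjusted p of 0.05. For embryoid body formation, the difference was 1.28 for Dnmt3a, 1.17 for Dnmt3b, 0.36 for Dnmt3l, 0.28 for Uhrf1, 0.19 for Dnmt1 and -0.33 for Tet1. For ATRA against DMSO it was -0.52 for Dnmt3b and -0.45 for Dnmt3a. For DMSO against untreated, where the siSCR side crosses the border between the 6 arrays that stood apart and the other 18, it was 1.37 for Tet1, 1.05 for Tet3, 0.94 for Tet2, 0.20 for Dnmt1, -0.31 for Uhrf1 and -0.49 for Dnmt3a. Border and treatment cannot be told apart in these 6 values.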

How the results depend on the processing

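Of 104 results for single genes 63 were called, and 43 of these kept their direction and their call under each alternative and without each array. Scaled to the same SD, Dnmt1 reversed to 0.072 for DMSO in siSCR, -0.070 for the vehicle difference between lines and -0.071 for the knockdown with ATRA, where Dnmt3a reversed to -0.026 (-0.074 after quantile normalization); that scaling also widens the 6 narrower siSCR arrays. Counts of the 8 genes called moved for ATRA in siPRMT1 (3, against 7 with array weights, 5 with the trended robust variance and 5 without the 6 arrays), ATRA in siSCR (4, against 2 with only the compared groups), DMSO in siPRMT1 (0, against 3 with array weights) and the undifferentiated knockdown (3, against 7 with array weights and 5 with the trended robust variance). The cause was not tested. Leaving out 1 array gave 2 to 4 called for ATRA in siPRMT1, 4 to 5 in siSCR and 2 to 3 for their difference, 0 to 0 for DMSO in siPRMT1, 7 to 8 in siSCR and 5 to 6 for their difference, and 5 to 6 for embryoid body formation in siPRMT1, 4 to 5 in siSCR and 4 to 6 for their difference. For the knockdown it gave 2 to 3 in undifferentiated cells, 4 to 4 at day 4, 8 to 8 with DMSO and 7 to 8 with ATRA.

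Over all genes, array weights changed the count called to 7640 from 2391 (ATRA in siPRMT1), 1567 from 4663 (ATRA in siSCR), 7688 from 4754 (difference in embryoid body formation), 8969 from 5632 (embryoid body formation in siSCR), 6106 from 3669 (knockdown at day 4) and 7218 from 3747 (knockdown in undifferentiated cells). Only the groups compared gave 544 for ATRA in siSCR and 135 for the difference in ATRA response, against 646, which was 405 after median centring and 304 to 897 without 1 array. DMSO in siPRMT1 gave 92, against 2536 with array weights, 47 after median centring, 51 with the same SD, 145 with the trended robust variance, 286 without the 6 arrays and 29 to 36 without 1 array.

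The labels do not say whether equal replicate numbers belong together. Deviations from the group means correlated at -0.502 to 0.606 (median 0.0122) in the 84 same-numbered pairs of arrays. In the 168 pairs of different number they correlated at -0.652 to 0.604 (median -0.00688). Of 24 arrays 9 correlated best with their own number. These values cannot exclude shared cultures or batches. With the number as a replicate block, the Dnmt1 difference in embryoid body formation had an adjusted p of 0.0529, and no other call of the 8 genes changed (5 called, against 6).

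Depth does not apply to arrays. Precision is limited by the 3 arrays of a group, no detection calls were used, and comparisons over the border have no array that would separate it from condition.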

Other observations

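Of 5 germ cell markers, 3 were lower and 0 higher in siPRMT1 at day 4 (median -0.31), led by Prdm1, and 2 were higher in undifferentiated cells, Prdm1 and Dnd1. The shares of all genes were 7.01% lower and 11.4% higher at day 4, and 7.63% higher and 11.2% lower in undifferentiated cells. Embryoid body formation raised Prdm1 and lowered Tfap2c and Kit in siPRMT1, and raised Prdm1 and Dnd1 in siSCR. Formation raised 23% and lowered 18.4% of all genes in siPRMT1, and raised 14.5% and lowered 13.7% in siSCR. The responses differed for 3 of the 5, Prdm1, Tfap2c and Dnd1, each more negative in siPRMT1. For this difference 23.8% of all genes were called (15% higher and 8.83% lower). The 5 markers encode factors of primordial germ cell specification and survival.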
